A study of Mus musculus with 6 samples.

Results

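The DnaJ proteins, also called Hsp40 proteins, are the co-chaperones that work with Hsp70. The genes described here are those whose symbol begins with Dnaja, Dnajb or Dnajc followed by a number and that an array probe set names as its one symbol, with the probe set of highest mean level standing for each gene. There were 44 such genes among the 18193 genes measured, 4 in subfamily A, 13 in subfamily B and 27 in subfamily C, and they were read by 104 probe sets. The 3 probe sets that name both Dnajc19 and its pseudogene copy were left out, so Dnajc19 has no value here.

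The cells were commercial mouse mesenchymal stem cells, which can form fat, bone and cartilage. Both groups grew with 1 µM rosiglitazone, 5 µg/ml insulin, 100 µM isobutylmethylxanthine and 1 µM dexamethasone, renewed 48 h before the exposure, and no culture without these compounds was compared. In each of 3 experiments 1 culture received 2 h of continuous laser light of 2.52 THz (118.8 µm), and 1 control culture lay next to it, both at 26 to 27 °C, with RNA taken directly afterwards. Each of the 6 cultures was read on 1 Affymetrix array. The sources used here give no strain, sex or number of animals behind the cells.

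Levels are on the log2 scale of robust multi-array averaging (RMA), the method the submitters name for making 1 value per probe set and array. A difference of 1 is a 2-fold change, and all differences are irradiated minus the control of the same experiment. The array medians lay between 5.01 and 5.05, and the median gene, by its brightest probe set, stood at 6.46. Precision depends on the number of arrays and on the spread of each probe set, since arrays carry no count of reads. One control array stood somewhat apart in the 3' minus 5' signal, which can reflect RNA quality. The 3' minus 5' signal of actin was 0.68 in control 3 against 0.50 to 0.57 on the other 5 arrays, and that of Gapdh 0.11 against -0.10 to -0.08. Markers of more than 1 kind of cell were bright. At or above the median gene lay 7 of 8 mesenchymal stromal, 8 of 8 fat cell and 8 of 8 macrophage markers. Whether the same cells carried markers of several lists was not tested. The stromal marker Thy1, at 3.88, lay below it, as did all 5 endothelial markers, while 1 of 4 epithelial markers reached it. Within the pairs the markers of a list mostly shared a sign in some experiments. All 8 macrophage markers were below the control in experiment 1 (median -0.15) and 7 of 8 above it in experiment 3 (0.16), with 0.045 in experiment 2. All 8 fat cell markers were below the control in experiment 2 (median -0.41), with 0.085 and 0.02 in experiments 1 and 3. Over the arrays the mean macrophage marker level was 10.94 to 11.54 in irradiated and 11.08 to 11.29 in control cultures, and the mean fat cell marker level 11.14 to 11.46 and 11.28 to 11.61. The part of other cells or of RNA quality in the values below was not tested. In such bulk samples fewer cells of a type and less RNA per cell cannot be told apart.

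An Hsp70 protein holds and releases unfolded protein as it splits and exchanges ATP. DnaJ proteins carry a J domain, which speeds the ATP splitting, and many of them bring the unfolded protein to Hsp70 themselves. Members of subfamily A have the layout of bacterial DnaJ with a zinc-binding region, those of subfamily B lack that region, and those of subfamily C share little beyond the J domain and serve particular compartments or tasks. Some members are induced by heat through the heat shock factors and others by unfolded protein in the endoplasmic reticulum (ER).

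No DnaJ gene passed the test for a difference after irradiation, and most had probe sets on the brighter side of the array. Of the 44 genes 34 (77.3%) lay at or above the median gene, as did 9099 of all 18193 genes. The brightest of several probe sets stands for 28 of the 44 genes and for 9010 of all genes, which can raise their levels. limma with the experiment as a block and Benjamini-Hochberg adjustment over all 18193 genes called 0 of the 44 DnaJ genes at an adjusted p under 0.05, with a smallest adjusted p of 0.995 among them. It called 0.0% of all genes. At an unadjusted p under 0.05 limma gave 1 DnaJ gene (2.27%), Dnajc15, on the lower side, against 3.31% of all genes. An ordinary paired test without limma's pooling of spreads also called 0 of the 44, with 2, Dnajc5 and Dnajc2, at an unadjusted p under 0.05 (4.55%, against 4.33% of all genes). The median DnaJ difference was -0.0017 ± 0.026 log2 units (SD of the per-experiment median, n = 3 experiments), and that of all genes -0.01. It was -0.02, 0.015 and -0.035 in experiments 1 to 3. By their means 21 DnaJ genes lay above 0, 22 below 0 and Dnajc25 at 0. Of all 18193 genes 8230 lay above 0 and 9689 below.

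The intervals of the differences were narrow for the brightest probe set of each gene. The 95% confidence interval of every one of the 44 genes, read this way, lay within 1.5-fold in either direction, reaching from -0.44 for Dnajc6 to 0.53 for Dnajc17 and Dnajb3. It lay within 1.3-fold for 37 genes (84.1%), against 81.5% of all genes. Its median half-width was 0.20 log2 units over the DnaJ genes and 0.21 over all genes. These intervals are those of limma, each for a single gene and not widened for the many genes tested. Among all 104 DnaJ probe sets 3 dimmer ones, of Dnajc17, Dnajb14 and Dnajc6, had an interval reaching beyond 1.5-fold, to -0.69, -0.62 and 0.59.

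**Figure D1:**
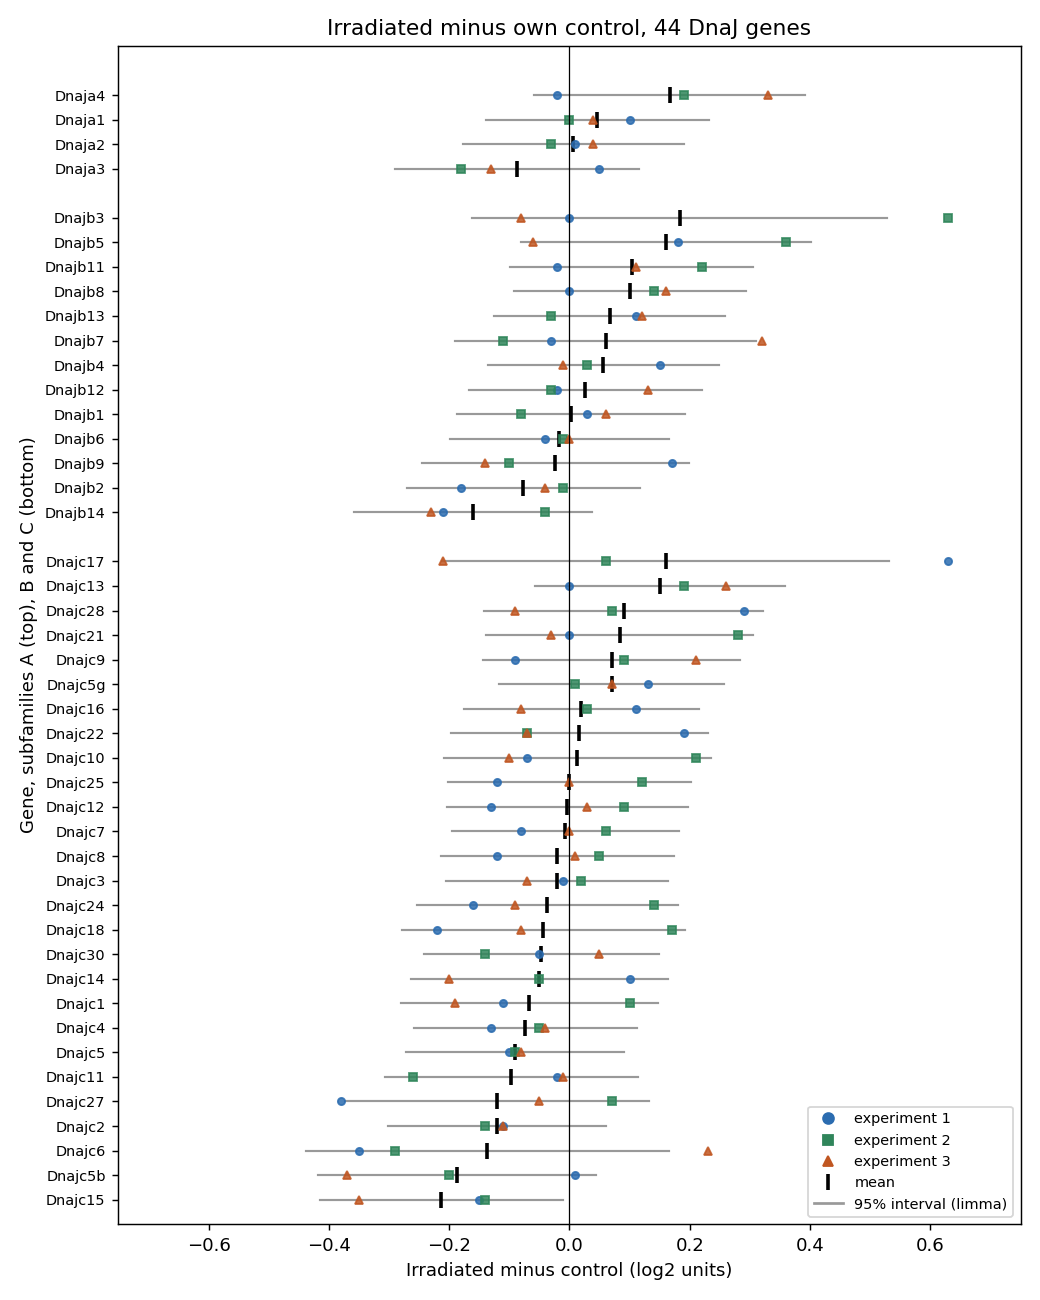
Irradiated minus control in log2 units (horizontal axis) for each of the 44 DnaJ genes, in blocks for subfamilies A, B and C. Coloured symbols are the 3 experiments, black ticks their mean and grey lines limma's 95% confidence interval; the means run from -0.21 for Dnajc15 to 0.18 for Dnajb3, and only the interval of Dnajc15 leaves out 0.

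By level, the brightest probe sets were those of Dnajb9 (11.53), Dnaja2 (11.44), Dnaja1 (11.29), Dnajc8 (11.24) and Dnajb6 (11.10). Dnajb9 is a co-chaperone of the ER, Dnaja1 and Dnaja2 are cytosolic members with the full bacterial layout, Dnajc8 is a splicing-associated protein, and Dnajb6 holds back the aggregation of polyglutamine proteins. The lowest were Dnajb7 (2.87), Dnajb3 (3.27), Dnajc5g (3.47), Dnajc6 (3.70) and Dnajc5b (4.41). Dnajb3, Dnajb7 and Dnajc5g are known mainly from testis, and Dnajc6 is auxilin, which helps strip clathrin from vesicles in neurons. Probes differ in how brightly they read the same amount of RNA, so the order of levels is that of the probe sets and no ratio between genes can be read from it.

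All 4 genes of subfamily A, 9 of 13 of subfamily B and 21 of 27 of subfamily C lay at or above the median gene. The median levels of the subfamilies were 10.23, 7.64 and 8.94. Subfamily B split into a bright, a middle and a dim set. Dnajb9, Dnajb6, Dnajb1, Dnajb4 and Dnajb11 lay between 10.03 and 11.53, Dnajb2, Dnajb14, Dnajb12 and Dnajb5 between 6.96 and 7.81, and Dnajb8, Dnajb13, Dnajb3 and Dnajb7 between 2.87 and 5.06. In subfamily C, 5 genes had levels of 9.93 or more, namely Dnajc8, Dnajc5, Dnajc7, Dnajc10 and Dnajc3. The 6 genes of this subfamily below the median gene were Dnajc27 (6.16), Dnajc22 (5.68), Dnajc28 (5.05), Dnajc5b, Dnajc6 and Dnajc5g.

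**Figure D2:**
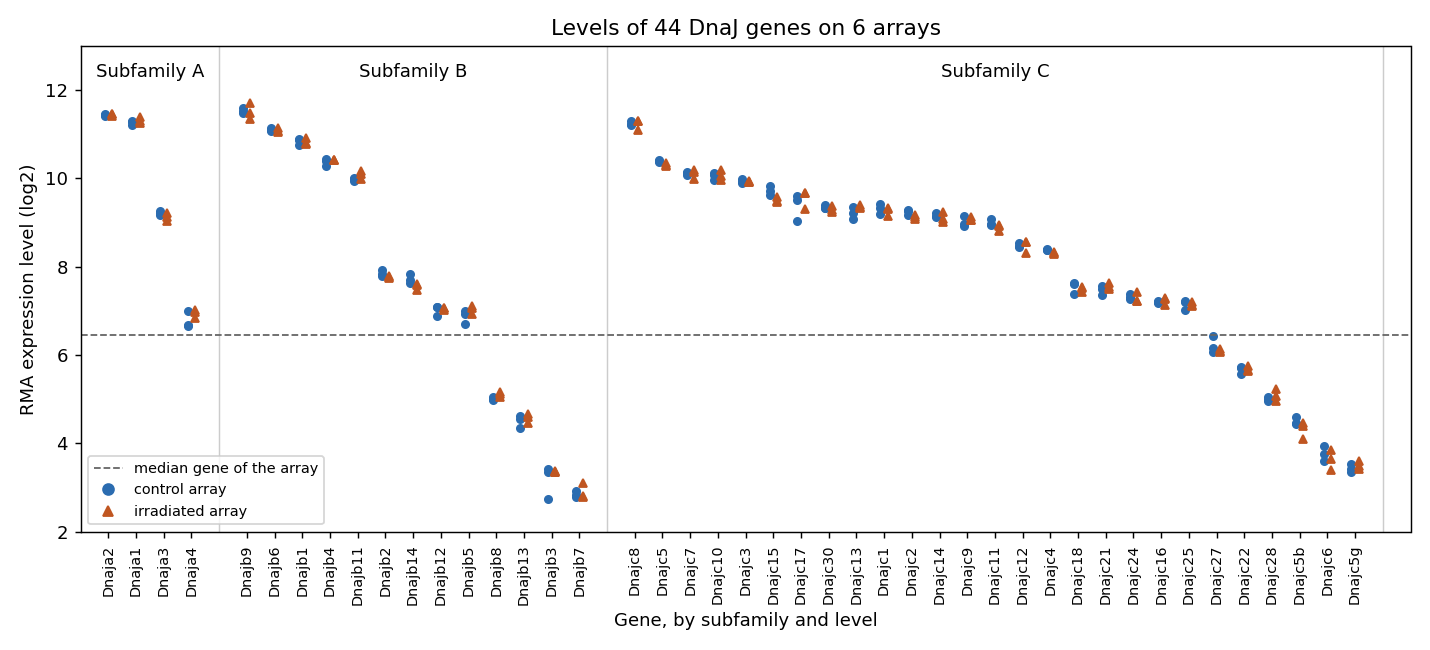
RMA level (log2, vertical axis) of each DnaJ gene on the 3 control arrays (circles) and the 3 irradiated arrays (triangles), ordered by subfamily and level, with the median gene of the array at 6.46 as a dashed line. Means over the 6 arrays run from 2.87 for Dnajb7 to 11.53 for Dnajb9, and the arrays of a gene lie close together on this scale.

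The 4 heat-inducible members, Dnajb1, Dnaja1, Dnajb4 and Dnaja4, are those whose transcription the heat shock factors are known to raise. Dnajb1, the classical Hsp40, was at 10.75, 10.89 and 10.86 in controls 1 to 3 and at 10.78, 10.81 and 10.92 in the irradiated cultures. Both groups covered nearly the same range, and the difference was 0.0033 (SE 0.079; limma's 95% interval -0.19 to 0.19). A second, dimmer probe set of Dnajb1 differed by 0.12, -0.06 and 0.21 in experiments 1 to 3.

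Dnaja1, which assists Hsp70 in the cytosol, stood at 11.28, 11.29 and 11.22 in the controls and at 11.38, 11.29 and 11.26 after irradiation. The ranges of the groups overlapped, and the mean difference was 0.047 (SE 0.077). Dnajb4, a close relative of Dnajb1, was at 10.27, 10.39 and 10.43 in the controls and at 10.42 in each of the irradiated cultures. The only array that stood away from the rest was control 1, and the mean difference was 0.057 (SE 0.080). Without experiment 1 it was 0.01, and that of Dnaja1 0.02. A dimmer probe set of Dnajb4, at 8.44, differed by 0.26, 0.09 and 0.10 in experiments 1 to 3. Another, at 4.21, differed by -0.43, -0.08 and 0.41. The dimmer probe sets of Dnaja1 differed by 0.03, 0.02 and 0.08 (level 10.5) and by 0.61, 0 and -0.24 (level 10.1).

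Dnaja4, a cytosolic member under the control of heat shock factors, had the largest mean difference of the 4. Its controls were at 7.0, 6.66 and 6.68 and its irradiated cultures at 6.98, 6.85 and 7.01. Control 1 was as high as the irradiated cultures, so the groups overlapped, and experiments 1 to 3 gave -0.02, 0.19 and 0.33. The mean was 0.17 (SE 0.094; 95% interval -0.06 to 0.39), for which limma gave an unadjusted p of 0.122 and an adjusted one of 0.995 (Benjamini-Hochberg). Without experiment 3, whose control stood apart, it was 0.085, and without that control alone, in a fit with no block, 0.12. Without experiment 1 it was 0.26. The 2 other probe sets of Dnaja4 differed by 0.15 and 0.26. The second of these was at 0.03, 0.15 and 0.61 in experiments 1 to 3.

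Taken as a list, the 4 heat-inducible genes had means above 0 in 4 of 4 cases, where 8230 of all 18193 genes did. Their median was 0.052 against -0.01 for all genes, and their per-experiment medians were 0.065, 0.015 and 0.05. Dnajb1 was at -0.0067 with array medians subtracted, and at -0.01, 0.045 and -0.025 without experiments 1, 2 and 3. None of the 4 genes passed the limma test, and by the brightest probe set 0 of the 4 had 1 sign in all 3 experiments. A dimmer probe set of each of Dnaja1, Dnajb4 and Dnaja4 was higher in all 3, and the dimmer one of Dnajb1 was not. Hspa1a, an Hsp70 gene that heat induces strongly, differed by 0.12, -0.13 and 0.39. It lay below the median gene, at 6.25, and its lowest array was control 3, at 6.06. Hspa1b, another Hsp70 gene, at 8.58, differed by 0, 0.12 and 0.10, with a mean of 0.073 (SE 0.078). The mean difference of Hspa1a was 0.13 (SE 0.11).

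The promoters of these genes are shown because heat shock factors bind repeats of the unit GAA and its complement TTC. RefSeq's table for GRCm38.p6 gave windows of 300 bases, 250 before and 50 after each start, for 36 of the 44 DnaJ genes (49 windows). Both strands were searched for a pair of units in either order, GAANNTTC and TTCNNGAA, and for 3 units, GAANNTTCNNGAA, which contains both pairs. A pair in one order or the other was present in the windows of 7 DnaJ genes (8 of 49 windows) and in 15.1% of all 32851 windows in the table. These genes were Dnaja1, Dnaja4, Dnajb4, Dnajb6, Dnajc10, Dnajc27 and Dnajc5g. GAANNTTC alone was in 7.86% of all windows and TTCNNGAA in 8.52%. Dnajb1 had no match within its windows. The stretches of the 3 heat-inducible genes with a match follow, 5′ to 3′ on the strand of the gene, with the matched letters in capitals. They come from chr9:54699458-54699487 and chr9:54699496-54699525 (plus strand; a further annotated start of Dnaja4 lies upstream of both), chr3:152193846-152193870 (minus strand) and chr4:40722333-40722362 (plus strand).
Dnaja4, first match: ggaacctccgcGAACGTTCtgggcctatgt
Dnaja4, second match: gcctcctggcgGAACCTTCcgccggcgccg
Dnajb4: ttcgttcgctgTTCTAGAAagtaca
Dnaja1: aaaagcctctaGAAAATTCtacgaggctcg
The first and second match of Dnaja4 began 90 and 52 bases before the start, that of Dnajb4 14 and that of Dnaja1 124. A match is a description of the letters and not a site shown to be bound. Dnaja4 was the only one of the 3 genes with more than 1 match, and none of the 3 differed between the groups by the test.

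Dnajb6 was the only DnaJ gene with 3 units in a row, a pattern found in 0.603% of all windows. The stretch lies at chr5:29735832-29735884 (plus strand, GRCm38.p6, RefSeq), with the 3 units in capitals.
Dnajb6: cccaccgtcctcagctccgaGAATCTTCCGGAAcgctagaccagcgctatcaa
The brightest probe set of Dnajb6 was at 11.09, 11.08 and 11.14 in the controls and at 11.05, 11.07 and 11.14 after irradiation. The groups overlapped, with a mean difference of -0.017 (SE 0.076). Its other 3 probe sets were dimmer and went both ways. That at 8.69 differed by -0.08, -0.07 and -0.19 in experiments 1 to 3, and that at 7.57 by 0.37, 0.12 and 0.18.

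The 5 members of the list that work on the inner side of the ER (Dnajb9, Dnajb11, Dnajc1, Dnajc3 and Dnajc10) lay at 9.29 to 11.53, all above the median gene, with a median difference of -0.02. Dnajb14, whose J domain faces the cytosol from the ER membrane, was not in that list and is described further on. Dnajb9 takes part in clearing misfolded protein and is induced by the unfolded protein response. It was at 11.53, 11.59 and 11.49 in the controls and at 11.70, 11.49 and 11.35 after irradiation. The irradiated culture was the higher one in experiment 1 and the lower one in experiments 2 and 3, and the mean difference was -0.023 (SE 0.093; 95% interval -0.24 to 0.20). It was -0.12 without experiment 1, and 0.015 and 0.035 without experiments 2 and 3.

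Dnajb11, a soluble co-chaperone that binds unfolded protein in the ER, was at 10.01, 9.94 and 9.99 in the controls and at 9.99, 10.16 and 10.10 in the irradiated cultures. Irradiated cultures 2 and 3 lay above all controls and irradiated culture 1 among them, and the mean difference was 0.10 (SE 0.085; 95% interval -0.10 to 0.31). It was 0.17 without experiment 1 and 0.045 without experiment 2. Dnajc10, which reduces disulfide bonds in proteins bound for degradation, differed by 0.013 (SE 0.093). Dnajc1, a membrane member that binds at ribosomes, differed by -0.067 (SE 0.089).

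Dnajc3, which restrains the kinases that slow translation under ER stress, gave different readings from different probe sets. The brightest was the steadiest of the ER list, at 9.94, 9.90 and 9.98 in the controls and 9.93, 9.92 and 9.91 after irradiation, a difference of -0.02 (SE 0.077). The next, at 9.82, differed by -0.067, and the 3 dimmer ones, at 8.48, 7.42 and 6.74, by 0.14, 0.18 and 0.22. The last was at 6.68, 6.59 and 6.61 in the controls and at 6.94, 6.75 and 6.84 in the irradiated cultures. These do not overlap, and limma per probe set gave it an adjusted p of 0.995 after Benjamini-Hochberg. The mean over the 5 probe sets was 0.091, on the other side of 0 from the brightest.

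The ER stress response element, searched as CCAAT and CCACG with any 9 bases between them, was found in 39 of the 32851 windows (0.119%). Dnajc3 was the only DnaJ gene with it. The stretch is at chr14:118937807-118937865 (plus strand, GRCm38.p6, RefSeq), with the element in capitals, beginning 105 bases before the start.
Dnajc3: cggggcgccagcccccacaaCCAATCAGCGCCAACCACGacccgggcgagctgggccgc
Of 6 regulators of the unfolded protein response 0 passed the test, with a median difference of -0.047, 1 above 0 and 5 below. Of all genes 53.3% lay below 0. Xbp1, a transcription factor of that response, differed by -0.17 (SE 0.098; 0.02, -0.37 and -0.16 in the experiments). Atf6, which is freed from the membrane to act on such elements, differed by -0.11 (SE 0.080) and its groups did not overlap.

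**Figure D3:**
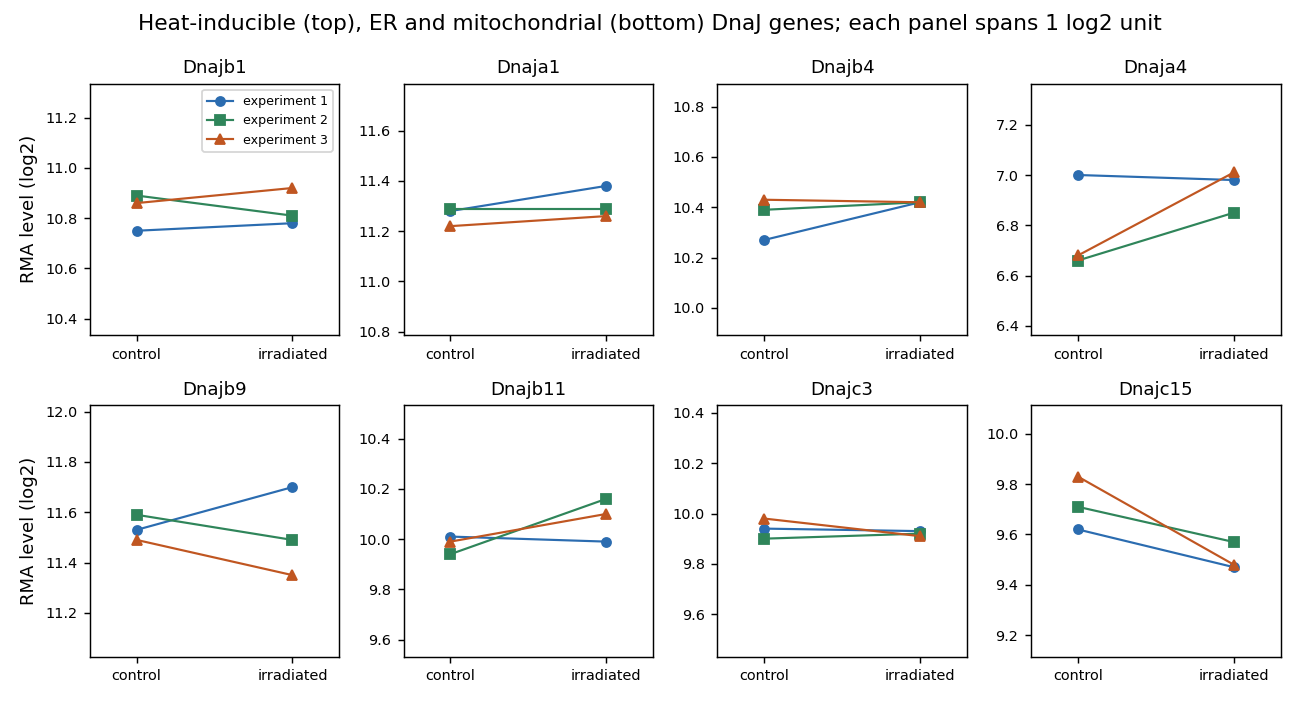
RMA level (log2, vertical axis) in the control and the irradiated culture of each experiment, joined by a line, for the heat-inducible genes Dnajb1, Dnaja1, Dnajb4 and Dnaja4 (top), the ER genes Dnajb9, Dnajb11 and Dnajc3 and the mitochondrial gene Dnajc15 (bottom). Every panel spans 1 log2 unit; the 3 lines of Dnajc15 all slope down, while those of Dnajb9 slope both ways and those of Dnajc3 are nearly flat.

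By their brightest probe sets, mitochondrial members mostly had mean differences below 0, and none passed the test. Of 6 genes measured (Dnaja3, Dnajc4, Dnajc11, Dnajc15, Dnajc28 and Dnajc30) 5 lay below 0, as did 53.3% of all genes, with a median of -0.08 against -0.01 for all genes. The per-experiment medians were -0.035, -0.14 and -0.065. The 8 fat cell markers had medians of 0.085, -0.41 and 0.02, and their part in the mitochondrial values was not tested. limma called 0 of the 6 after Benjamini-Hochberg adjustment, and 1, Dnajc15, had an unadjusted p under 0.05.

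Dnajc15, an inner membrane protein that takes part in protein import and restrains respiratory complex I, had the smallest p of the family. It was at 9.62, 9.71 and 9.83 in the controls and at 9.47, 9.57 and 9.48 in the irradiated cultures. All 3 irradiated cultures lay below all 3 controls, by -0.15, -0.14 and -0.35 in the pairs. The mean difference was -0.21 (SE 0.085; 95% interval -0.42 to -0.01), for which limma gave an unadjusted p of 0.0413 and an adjusted one of 0.995 (Benjamini-Hochberg). The pair with the largest difference held the control that stood apart in the 3' minus 5' signal. Without experiment 3 the difference was -0.15, and without that control alone, in a fit with no block, -0.16, with 0 DnaJ genes at an unadjusted p under 0.05 in limma. Dnajc15 was read by 1 probe set only.

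Dnajc4, a little-studied member placed in mitochondria, was at 8.41, 8.37 and 8.37 in the controls and at 8.28, 8.32 and 8.33 after irradiation. The groups did not overlap, but the gap was small, and the mean difference was -0.073 (SE 0.077). Dnajc11, a partner of the complex that shapes the inner membrane folds, differed by -0.02, -0.26 and -0.01. Dnaja3, the mitochondrial member of subfamily A, differed by 0.05, -0.18 and -0.13, and Dnajc30 by -0.05, -0.14 and 0.05. Dnajc28, the dimmest of the list at 5.05, had a mean of 0.090 (SE 0.097). Dimmer probe sets did not all share the sign of the brightest. Those of Dnajc11 had means of -0.083, 0.073 and 0.11, those of Dnaja3 0.047 and 0, and that of Dnajc28 -0.11.

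Members of the secretory and endocytic routes showed no common direction, with 2 of 5 above 0 and a median of -0.09. Dnajc5, the cysteine string protein that guards vesicle fusion proteins, was at 10.40, 10.38 and 10.42 in the controls and at 10.30, 10.29 and 10.34 in the irradiated cultures. The irradiated cultures lay below the controls by nearly the same amount in each pair, -0.10, -0.09 and -0.08, and the groups did not overlap. The mean was -0.09 (SE 0.076; 95% interval -0.27 to 0.09), and limma gave 0.995 as the adjusted p (Benjamini-Hochberg). limma draws the spread of a gene towards that of all genes, so its SE is wider than the pairs alone would give. These values are those of the brightest of the 5 probe sets of Dnajc5. The others, at 9.74, 9.69, 6.72 and 6.16, had mean differences of -0.08, -0.047, 0.043 and -0.19. Their groups overlapped.

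Dnajc13, which works in the sorting of endosomes, was at 9.36, 9.21 and 9.08 in the controls and at 9.36, 9.40 and 9.34 after irradiation. Control 1 equalled its pair, and the lowest value was control 3. The mean difference was 0.15 (SE 0.087), with 0.095 without experiment 3, 0.082 without control 3 alone in a fit with no block, and 0.23 without experiment 1. Dnajc5b, a dim relative of Dnajc5, was at 4.44, 4.60 and 4.46 and then at 4.45, 4.40 and 4.09. Irradiated culture 3 was the lowest, and the mean difference was -0.19 (SE 0.097). It was -0.095 without experiment 3 and -0.29 without experiment 1.

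Among members that act at ribosomes, in splicing or on histones, 3 of 5 lay above 0. Dnajc2, which sits on the ribosome and assists new protein chains, was at 9.18, 9.26 and 9.29 in the controls and at 9.07, 9.12 and 9.18 in the irradiated cultures. Each irradiated culture lay below its own control, by -0.11, -0.14 and -0.11, although the groups met at 9.18. The mean was -0.12 (SE 0.076), and averaged over the 4 probe sets of Dnajc2 it was -0.0092. Dnajc8 differed by -0.02 (SE 0.081), the histone chaperone Dnajc9 by 0.070 (SE 0.090) and Dnajc21, which takes part in ribosome assembly, by 0.083 (SE 0.093).

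Dnajc17, a splicing-related member, had the widest interval of the family. Its brightest probe set was at 9.04, 9.61 and 9.51 in the controls and at 9.67, 9.67 and 9.30 after irradiation. Control 1 was the lowest array and gave a difference of 0.63 in experiment 1, against 0.06 and -0.21 in the other 2. The mean was 0.16 (SE 0.16; 95% interval -0.21 to 0.53).

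Of the remaining members, Dnajb14, an ER membrane protein, was at 7.69, 7.63 and 7.83 in the controls and at 7.48, 7.59 and 7.60 after irradiation. The groups were apart by the narrow gap between 7.60 and 7.63. The mean difference was -0.16 (SE 0.083), for which limma gave an unadjusted p of 0.0964 and an adjusted one of 0.995 (Benjamini-Hochberg). A second probe set of Dnajb14 differed by -0.12, -0.06 and -0.71, again with the largest difference in experiment 3, and without experiment 3 the brightest stood at -0.13. Without control 3 alone, in a fit with no block, it was -0.10.

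Dnajb5, a relative of Dnajb1 and Dnajb4, was at 6.94, 6.70 and 6.99 in the controls and at 7.12, 7.06 and 6.93 in the irradiated cultures. The sign turned in experiment 3, and the mean was 0.16 (SE 0.10). Without experiment 2 it was 0.06, and without experiment 3 0.27. Dnajb3, a testis gene near the floor of the scale, was at 3.34, 2.75 and 3.43 and then at 3.34, 3.38 and 3.35. Its mean of 0.18 (SE 0.14) rested on the low control 2, and without experiment 2 it was -0.04, without experiment 1 0.28 and without experiment 3 0.32.

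The 6 members listed as known mainly from testis were Dnajb3, Dnajb7, Dnajb8, Dnajb13, Dnajc5b and Dnajc5g. They were at 2.87 to 5.06, none reaching the median gene. Dnajc5b and Dnajc5g are also counted among the members of the secretory and endocytic routes. Of these 6, 5 had a mean above 0, against 8230 of all 18193 genes, and their median difference was 0.068. Changes at such levels are compressed by RMA, and no detection calls were used here.

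The share of members that kept their sign over the experiments was near that of all genes. The difference had 1 sign in all 3 experiments for 8 DnaJ genes (18.2%), where 21.0% of all genes did. It was below 0 in all 3 for 7 genes (15.9%), Dnajc15, Dnajb14, Dnajc2, Dnajc5, Dnajc4, Dnajb2 and Dnajc11, against 12.8% of all genes. It was above 0 in all 3 for 1 gene (2.27%), Dnajc5g, against 8.23% of all genes. Dnajb2, a co-chaperone that binds ubiquitin, differed by -0.18, -0.01 and -0.04. The control and irradiated groups did not overlap for 4 genes (9.09%), Dnajc15, Dnajb14, Dnajc5 and Dnajc4, against 8.26% of all genes. All 4 had the irradiated cultures below, as had 5.36% of all genes. With array medians subtracted 7 DnaJ genes (15.9%) were apart, against 8.83% of all genes, and with the mean over probe sets 6 (13.6%), against 8.13%. These shares were not tested.

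Between the experiments no DnaJ gene passed the test, and neither did any other gene. With irradiation as a term, limma's F test over the 3 experiments called 0 of the 44 genes after Benjamini-Hochberg adjustment, and 0 at an unadjusted p under 0.05. It called 0.0% of all genes, and 5.46% had an unadjusted p under 0.05. The smallest unadjusted p in this limma F test were those of Dnajb13 (0.125), Dnaja4 (0.194), Dnajc5b (0.215), Dnajb3 (0.215) and Dnajc5g (0.264). The mean levels of Dnajb13, a sperm tail protein, were 4.61, 4.61 and 4.40 in experiments 1 to 3, and those of Dnaja4 were 6.99, 6.76 and 6.85. Of these 5 genes only Dnaja4 lay above the median gene. The experiment means of a DnaJ gene spanned 0.10 log2 units (median over genes), against 0.13 for all genes, and its SD over the 6 arrays was 0.083 against 0.11. This contrast was not matched for level, and most DnaJ genes lay above the median gene. Among DnaJ probe sets the median SD was 0.15 below the median gene and 0.083 above it.

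Several probe sets read 28 of the DnaJ genes, and they often gave different signs, as did those of all genes with several probe sets. For 10 of the 28 genes (35.7%) the mean differences of all probe sets had 1 sign, against 40.0% of the 9010 genes with several probe sets. The spread between the highest and lowest mean of a gene was 0.13 log2 units (median), and 0.13 for all such genes. The widest spread was that of Dnajc17, whose probe sets at 9.47, 4.56 and 3.90 differed by 0.16, -0.37 and 0.12.

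Over all 104 DnaJ probe sets limma called 0 after Benjamini-Hochberg adjustment, and 6 (5.77%) had an unadjusted p under 0.05, against 3.77% of all probe sets. Of these 6, 4 lay below the median gene, where 40 of the 104 probe sets were. They belonged to Dnajc21 (level 3.81, difference -0.33), Dnajc17 (-0.37), Dnajc6 (level 2.37, difference 0.31) and Dnajc27 (level 4.44, difference -0.22). The 2 others were the dimmest probe set of Dnajc3 and the probe set of Dnajb6 at 7.57, both with a difference of 0.22. None of the 6 was the brightest probe set of its gene. Below the median gene the DnaJ probe sets had a median absolute difference of 0.10 and a median SD over the arrays of 0.15, against 0.067 and 0.083 above it.

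**Figure D4:**
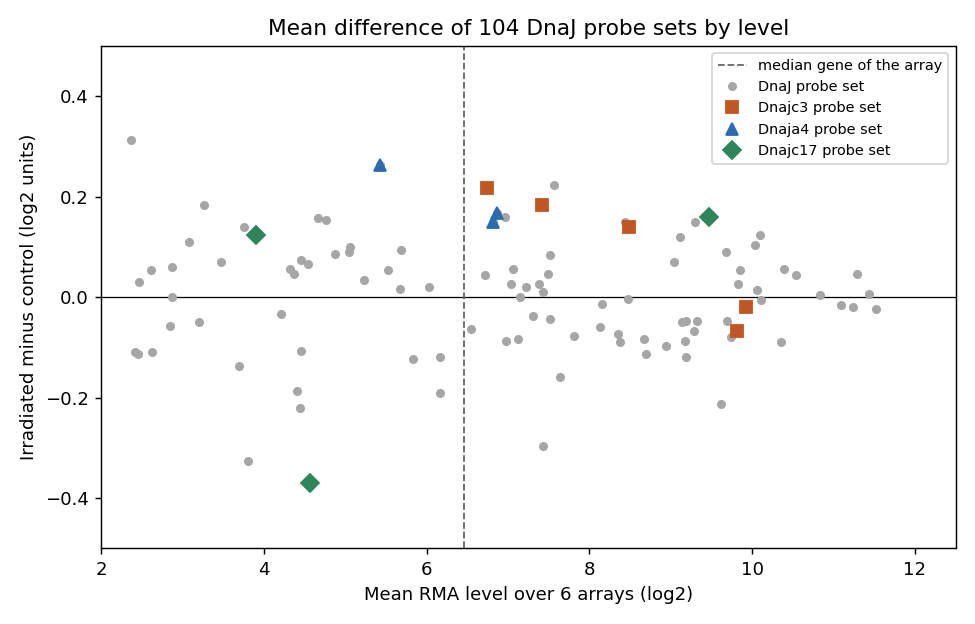
Mean irradiated minus control difference (log2 units, vertical axis) of each of the 104 DnaJ probe sets against its mean RMA level (log2, horizontal axis), with the median gene at 6.46 as a dashed line. Squares are the probe sets of Dnajc3, which run from -0.067 at level 9.82 to 0.22 at level 6.74, triangles those of Dnaja4 and diamonds those of Dnajc17.

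J-domain proteins also exist under other symbols. Sec63, which recruits the ER Hsp70 to the import channel, was at 8.77, 8.75 and 8.66 in the controls and at 8.83, 8.87 and 8.98 after irradiation. Its groups did not overlap, and the mean difference was 0.17 (SE 0.087), and limma gave 0.995 as the adjusted p (Benjamini-Hochberg). Gak, the relative of auxilin found in most tissues, differed by -0.093 (SE 0.078; -0.10, -0.15 and -0.03). Hscb, which serves the making of iron-sulfur clusters, differed by 0.027 (SE 0.091).

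No gene in the lists of DnaJ partners passed either. Of 15 Hsp70 genes 10 lay above 0 and 5 below, with a median of 0.037. The ER chaperone Hyou1 differed by -0.09 (SE 0.083). Of 10 nucleotide exchange factors, which reset Hsp70 after the DnaJ step, 1 lay above 0 and 8 below, with a median of -0.048. Of all genes 53.3% lay below 0. Bag3, which links Hsp70 to small heat shock proteins and to autophagy, was at 10.07, 10.09 and 10.18 in the controls and at 9.97, 9.82 and 9.98 in the irradiated cultures. These do not overlap, and the mean of -0.19 (SE 0.080) had an unadjusted p of 0.0521 in limma and 0.995 after Benjamini-Hochberg adjustment. Bag2 went the other way, with 0.10, 0.19 and 0.10 in the experiments (SE 0.078). Among 9 other partners of Hsp70 and Hsp90, 3 lay above 0 and 6 below, the co-chaperone Sgta at -0.093 and the ER chaperone Hsp90b1 at 0.073. The heat shock factors Hsf2 and Hsf4 differed by 0.033 and 0.06, and Hsf1, with no probe set of 1 symbol, was not measured here.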

How the data were processed

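The submitters' processing notes name RMA, affy and limma, with no versions in the sources used here. The authors deposited 1 log2 value per probe set and array. The log base is not stated and was read from the range, 1.73 to 14.53. Quantile normalization, part of RMA, hides a shift common to all genes. Of 45101 probe sets 64 are control probe sets. Of the 45037 tested, the platform annotation, which can be old, gives 1 symbol for 34945, several for 932 and none for 9160. All 44 DnaJ genes matched RefSeq by Entrez identifier, with 0 symbols changed.

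Irradiated and control cultures were compared by limma 3.58.1 in R 4.3.3 (lmFit, eBayes, experiment as a block, 2 residual and 4.66 prior degrees of freedom) over all genes, with Benjamini-Hochberg adjustment and a threshold of 0.05. Cultures were paired because the design text of the series puts a control beside each irradiated one. Deviations of the paired arrays from their group means correlated at 0.15, -0.090 and -0.012 over genes. The highest such correlation between a control and an irradiated array of different experiments was 0.16. The pairing thus rests on the titles and the design text. The labels call the experiments independent. With 3 pairs an exact test of 1 value cannot reach 0.05.

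The members and lists were chosen with earlier results of these data known. Values in every array are given for Dnajb1, Dnaja1, Dnajb4, Dnajb9, Dnajb11, Dnajc3 and the 4 members per direction with the smallest p; levels for the 5 highest and 5 lowest; the 5 smallest p of the F test; and 2 partners per list. Other members, and Hspa1b, were shown after their values were seen. Alternatives were a fit with no block or a random one, the mean over probe sets, brighter genes only, array medians subtracted, a trended robust prior, single probe sets, an ordinary paired test, each experiment left out and, chosen after seeing the data, control 3 left out. The fits were tested on simulated data. Detection calls and scan dates were not used here.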

Additional observations from a re-analysis of the deposited data

How the results depend on the processing

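The count of DnaJ genes called by limma with Benjamini-Hochberg adjustment was 0 under every alternative listed above. In the fit with no replicate block it was 0, and treating the pairing as a random block also gave 0. With complete pairs the median DnaJ difference, -0.0017, is the same with or without the block by construction. The median DnaJ difference ran from -0.018 without experiment 2 to 0.0075 without experiment 1. Over all genes the ordinary paired test called 8, none of them a DnaJ gene, and limma in its other settings 0. The smallest unadjusted p of the ordinary paired test was 2.7e-30. With 2 residual degrees of freedom, such a p needs nearly identical differences in the 3 pairs, which rounded values can give. The 8 calls are therefore not taken as differences between the groups. The number of DnaJ genes with 1 sign in all experiments was 11 with the mean over probe sets. The share of all genes in that setting was not determined, so this count is not read as a trait of the DnaJ genes. The number whose groups did not overlap was 4 as normalized by the authors, 6 with the mean over probe sets (8.13% of all genes) and 7 with array medians subtracted (8.83% of all genes). All 3 of these counts were added after seeing the data. Signal over background was not available as detection calls, and 10 DnaJ genes lay below the median gene.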
